A study of Mus musculus with 6 samples.

Results

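The 47 genes described here code for the working parts of the lysosome: 21 acid hydrolases and their cofactors, 7 proteins of the lysosomal membrane, 17 subunits of the proton pump (V-ATPase) and 2 transcription factors. They are a list of gene names drawn up with earlier results of these data known, and each gene was read from its brightest probe on the arrays. A probe under the gene's own name was found for 46 of the 47, and all 46 were among the 19189 genes tested. Tfeb is the 1 member with no probe under its name, and it is not analysed here. All 46 were well above background on all 6 arrays, so no member passed the filter on dim probes through 1 group alone. The series compared RNA from single whole testes of 3 AROM+ mice, which carry a transgene that over-expresses aromatase, with testes of 3 wild-type (WT) mice. Mice of both groups were male, 5 months old and of the C57BL/6 background, and the labels name neither the promoter that drives the transgene nor the species of its coding sequence. One-colour Agilent arrays were used, 1 for each testis.

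Lysosomes break down proteins, lipids, glycans and sulfated sugars with hydrolases that need an acid lumen. The acid is made by the V-ATPase, in which the V1 sector in the cytosol hydrolyses ATP and the V0 sector in the membrane carries protons, and several of its subunits exist as paralogs with different tissue distributions. Many lysosomal genes carry an E-box-like promoter element, the CLEAR element, bound by the MiT family of factors, to which TFEB and MITF belong. In the testis, lysosomes serve macrophages and the Sertoli cells that take up residual bodies and dying germ cells, while the acrosome of spermatids is an acidic, hydrolase-filled organelle related to them.

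Levels below are log2 processed intensity minus the array's 75th percentile, so a level belongs to its own probe and is not set against that of another gene. Differences are AROM+ minus WT on that scale, with limma's standard error (SE) and n = 3 testes per group. A call is a limma p under 0.05 after Benjamini-Hochberg adjustment over all genes tested. For a gap between 2 probes or 2 genes within a testis, the SE is the ordinary one from the pooled spread within the groups. Between 76.6% and 80.6% of the spots of an array were well above background. The mouse aromatase gene Cyp19a1 was not called (difference −0.30 ± 0.18, limma adjusted p = 0.208), and whether its probe detects the transgene is unknown. All 6 arrays lay on 1 slide with AROM+ in one row and WT in the other, so slide position and genotype cannot be told apart.

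Of the 46 members, 23 were higher in AROM+ testes, 4 were lower and 19 were not called (limma). The background for the higher calls is 19.6% of all genes tested, against 23 of 46 here, and for the lower calls 32.7% of all genes, against 4 of 46. The same shares are the background for every count of higher or lower genes in the lists below. The median difference of the members was 0.37, where the median over all genes tested was −0.15. Values of the groups did not overlap for 35 members, 28 with AROM+ above and 7 with AROM+ below, where 63.4% of all genes with values on every array did not overlap, 4422 with AROM+ above and 7735 with AROM+ below. At least a 2-fold rise was seen in 10 members, against 1374 of the 19189 genes tested. No member fell by as much, and 280 of all genes did. The differences ran from −0.77 for Atp6v1b1 to 2.19 for Laptm5. In whole testes, a change in the share of a cell type and a change in RNA per cell cannot be told apart. Quantile normalization gave 4113 higher and 4078 lower calls over all genes, against 3759 and 6271 here, and centring each array on its gene median gave 19 higher and 7 lower members.

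**Figure D1:**
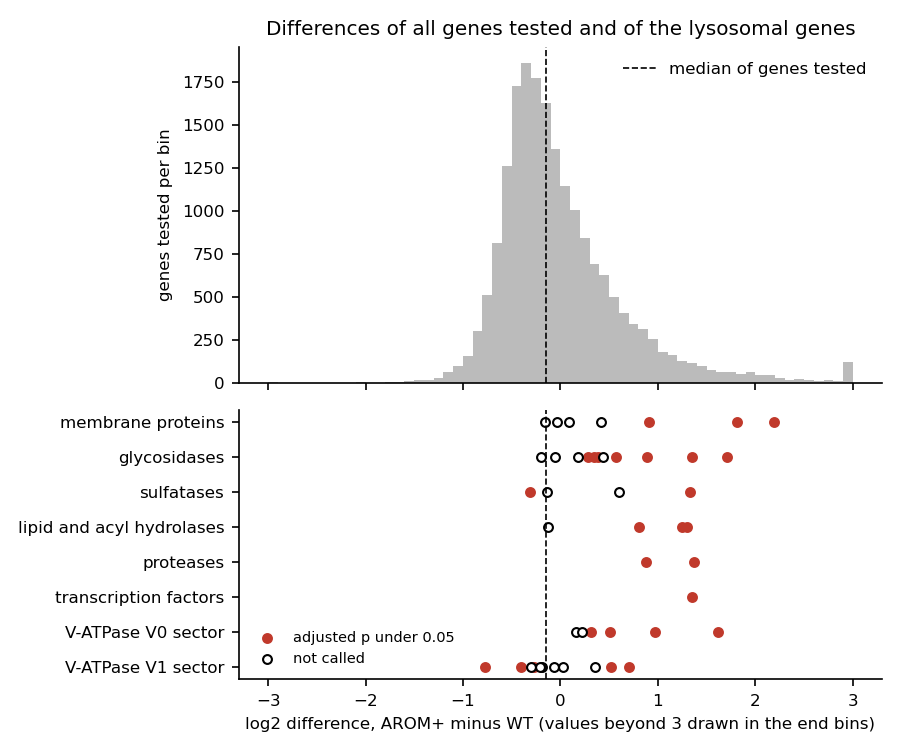
Log2 differences (AROM+ minus WT) of all 19189 genes tested, as genes per bin of the upper panel, and of the 46 lysosomal genes, 1 point per gene and 1 row per role in the lower panel. Filled points are genes with a limma adjusted p under 0.05. The dashed line is the median of all genes (−0.15), and most rows except the V1 sector of the V-ATPase lie mainly to its right.

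The hydrolases and cofactors held 13 of the 23 higher members and 1 of the 4 lower ones. The V-ATPase held 6 higher and 3 lower members of 17. Markers of other cells of the testis also differed between the groups. Their counts stand against 19.6% higher and 32.7% lower calls over all genes tested, where the median difference was −0.15. Of 10 macrophage markers tested, 7 were higher and 2 were lower in AROM+ testes, and their mean level lay between 1.49 and 1.97 in AROM+ testes and between 0.41 and 0.83 in WT testes. The macrophage lysozyme gene Lyz2 (difference 2.79), the signalling adaptor gene Tyrobp (2.68), Cd68 (2.40) and Emr1 (1.91), a surface receptor gene of mature macrophages, had the largest differences. The 2 lower ones were Csf1r (−0.44), the receptor gene for macrophage growth factor, and Aif1 (−0.33). Of 9 spermatid markers, 6 were lower and 0 higher, with a mean level between 3.53 and 3.59 in AROM+ testes and between 3.93 and 4.05 in WT testes. Spermatocyte markers were lower for 3 of 5, with a mean level of 1.45 to 1.56 in AROM+ testes and 1.86 to 1.91 in WT testes. Sertoli cell markers were higher for 3 of 7 and not called for the other 4. Their mean level was 1.69 to 1.99 in AROM+ testes and 1.18 to 1.54 in WT testes. Leydig cell markers were higher for 3 of 6 and lower for 0, with a mean level of 0.59 to 1.44 in AROM+ testes and −0.49 to 1.15 in WT testes. Every marker tested was well above background on all 6 arrays. The part of any of these cells in the lysosomal differences was not tested.

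Promoter sequences are shown for 4 of the 5 members that hold more than 1 E-box in a promoter, to show where these E-boxes lie. The fifth, Cln3, which was not called, holds 2 in one of its promoters and is not shown. Each sequence covers 250 bases before to 50 bases after the gene's start, from RefSeq on GRCm38.p6, written 5′ to 3′ on the gene's strand. Capitals mark the letters TCACGTG or TCACGTGA, searched on both strands, so that a match on the other strand reads CACGTGA.
Lamp1, chr8:13158911-13159210 (+ strand): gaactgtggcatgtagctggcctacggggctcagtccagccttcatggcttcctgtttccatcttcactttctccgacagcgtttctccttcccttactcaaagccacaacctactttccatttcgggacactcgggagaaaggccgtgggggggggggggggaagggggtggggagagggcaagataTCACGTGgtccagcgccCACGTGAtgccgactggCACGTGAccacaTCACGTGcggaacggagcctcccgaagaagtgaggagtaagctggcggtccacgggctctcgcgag
Mcoln1, chr8:3500269-3500568 (+ strand): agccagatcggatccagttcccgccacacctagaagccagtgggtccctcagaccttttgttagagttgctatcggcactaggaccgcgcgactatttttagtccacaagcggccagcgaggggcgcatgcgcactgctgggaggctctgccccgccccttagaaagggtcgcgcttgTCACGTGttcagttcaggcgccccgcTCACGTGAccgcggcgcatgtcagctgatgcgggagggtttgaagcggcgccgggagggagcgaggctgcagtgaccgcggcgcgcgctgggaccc
Gla, chrX:134600956-134601255 (- strand): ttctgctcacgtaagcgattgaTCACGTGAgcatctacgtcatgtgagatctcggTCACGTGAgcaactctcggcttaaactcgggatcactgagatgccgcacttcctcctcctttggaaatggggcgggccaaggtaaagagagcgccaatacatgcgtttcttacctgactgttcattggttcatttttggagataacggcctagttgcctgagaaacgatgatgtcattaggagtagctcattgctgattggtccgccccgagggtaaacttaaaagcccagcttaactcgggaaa
Atp6v0b, chr4:117887280-117887579 (- strand): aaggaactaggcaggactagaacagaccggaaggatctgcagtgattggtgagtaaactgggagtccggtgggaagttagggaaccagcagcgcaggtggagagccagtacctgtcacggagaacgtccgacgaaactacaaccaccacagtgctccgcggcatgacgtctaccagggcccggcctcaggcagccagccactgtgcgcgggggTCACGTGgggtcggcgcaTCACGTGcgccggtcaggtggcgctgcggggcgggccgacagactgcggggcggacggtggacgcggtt
The Lamp1 window holds 4 E-boxes between 61 and 15 bases before the start, and Mcoln1 holds the full palindrome TCACGTGA once and a 7-letter match further upstream. Gla holds the palindrome at 2 places, 228 and 195 bases before its start. The 2 matches of Atp6v0b begin 37 and 19 bases before its start.

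Across members, the palindrome TCACGTGA was found in 6 of the 42 listed members that have a promoter in the table (14.3%), against 1.67% of the 13208 genes tested that have one. These were Mcoln1, Cln3, Gla, Atp6v0d1, Atp6v0e and Atp6v1a. The core CACGTG was found in 14 of 42 members (33.3%), against 10.2% of genes tested, and each of the 14 also held TCACGTG, which 5.74% of genes tested hold. The other 8 were Lamp1, Gaa, Glb1, Naglu, Arsa, Sgsh, Lgmn and Atp6v0b. The 42 include Tfeb and leave out Asah1, Atp6v1b2, Atp6v1c1, Atp6v1g1 and Atp6v1h, for which the table lists none. Members with the core were found in every class of call, namely 7 of 20 higher members, 1 of 4 lower members and 6 of 17 members not called. The median difference was 0.30 over the 14 members with the core and 0.57 over the 27 measured members without it. Over the 13208 genes tested with a promoter the order was the other one, −0.09 with the core and −0.14 without it, and 0.02 with the palindrome and −0.14 without it. Lamp1, with 4 matches, was not called, while the 3 members with the largest differences (Laptm5, Scarb2 and Gusb) held no exact match in these windows. Only exact copies of these letters were counted, and variants of them were not searched. A match is a run of letters and was not tested for binding.

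**Figure D2:**
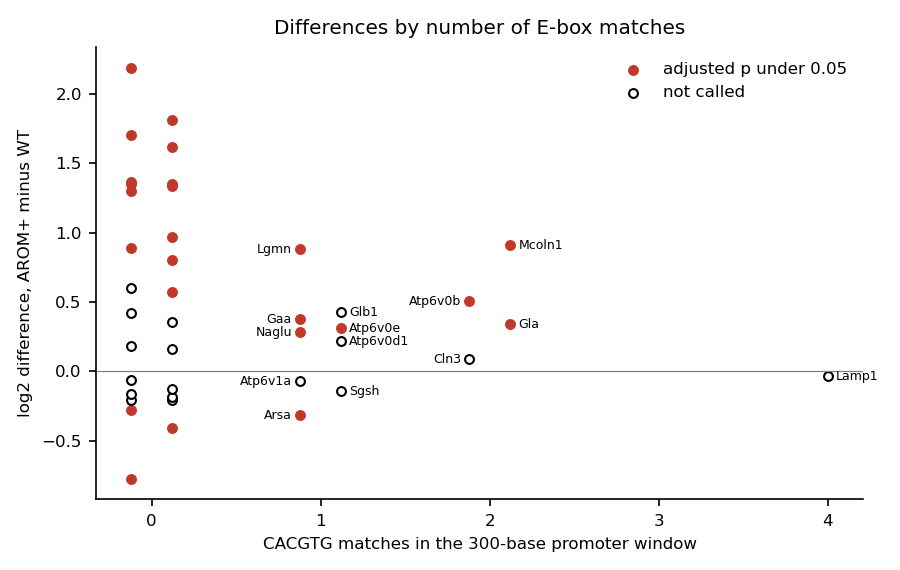
Log2 difference (AROM+ minus WT) of each lysosomal gene against the number of CACGTG matches in its 300-base promoter window, for the 41 measured members with a promoter in the table. Points are set slightly left or right of their count so that they can be told apart. The largest differences stand at 0 matches, and Lamp1 stands at 4 matches with a difference of −0.03.

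Of the 7 membrane proteins, 3 were higher in AROM+ testes and 0 were lower, while Lamp1 and Lamp2 were not called. Laptm5, a lysosomal membrane protein of blood-derived cells that lowers receptor signalling, read 1.17, −0.06 and 0.41 in AROM+ testes, against −1.67, −1.33 and −2.05 in WT testes. The lowest AROM+ value lay above the highest WT value by more than the spread within WT. The difference was 2.19 ± 0.33, a 4.57-fold rise (limma adjusted p = 0.00418), and a second Laptm5 probe gave 2.21. Scarb2 codes for LIMP2, which carries glucocerebrosidase to the lysosome. It read −0.65, −1.49 and −1.72 in AROM+ testes, against −3.19, −2.97 and −3.14 in WT testes, with a wider spread in AROM+ than in WT. The rise was 3.52-fold (1.82 ± 0.27, limma adjusted p = 0.00412). The calcium channel of the lysosome, Mcoln1, read 0.36, 0.19 and 0.50 in AROM+ testes, against −0.90, −0.29 and −0.50 in WT testes. All AROM+ values were above 0 and all WT values below it, a difference of 0.91 ± 0.17 (limma adjusted p = 0.00715).

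Lamp1, a major glycoprotein of the lysosomal membrane, read 3.42, 3.61 and 3.60 in AROM+ testes, against 3.53, 3.57 and 3.63 in WT testes. These ranges overlapped, and the difference was −0.03 ± 0.09 (limma adjusted p = 0.772). Cln3, the Batten disease protein, likewise overlapped (0.09 ± 0.10, limma adjusted p = 0.463). Its other probes gave −0.05 and, for one much dimmer, 0.61 ± 0.13 (limma over all probes, adjusted p = 0.0128). The gap of that dimmer Cln3 probe to the brightest one changed by 0.52, or by 0.27 with normexp background correction. Laptm4a, a broadly expressed relative of Laptm5, lay slightly lower on every AROM+ array without passing the test (−0.16 ± 0.08, limma adjusted p = 0.138). Lamp2, the partner of Lamp1 and a receptor of chaperone-mediated autophagy in 1 of its splice forms, read 2.35, 2.14 and 1.75 in AROM+ testes, against 1.70, 1.60 and 1.67 in WT testes. The groups did not overlap, but AROM+ replicate 3 lay close to WT, and the difference of 0.42 ± 0.16 was not called (limma adjusted p = 0.0602). Lamp2 was called in 6 of the 19 other settings, among them leaving out AROM+ replicate 3, where the difference was 0.58 (limma adjusted p = 0.0119).

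The 2 Lamp2 probes gave different answers and are listed under different RefSeq transcripts of the gene. The probe that is not the brightest read 1.30, 0.91 and 0.87 in AROM+ testes, against −0.32, −0.01 and −0.27 in WT testes. No AROM+ value came near a WT value, and its difference was 1.22 ± 0.15 (limma over all probes, adjusted p = 0.00404), against 0.42 for the brightest probe. The gap between the 2 probes, taken within each testis, changed by 0.80 ± 0.16, and its values did not overlap between the groups. An exact permutation test of 3 against 3 cannot go below 0.10, so this gap had p = 0.10 (two-sided), or 0.156 after adjustment over the 14 such comparisons made in 13 genes.

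The glycosidases, which take sugars off glycoproteins and glycolipids, had 7 of 11 members higher and 0 lower, with a median difference of 0.38. Gusb, the beta-glucuronidase, read 0.64, 0.31 and 0.36 in AROM+ testes, against −1.29, −1.22 and −1.30 in WT testes. The WT arrays lay within a narrow band far under the AROM+ ones. The rise was 3.26-fold (1.71 ± 0.11), with the smallest adjusted p of any member (limma adjusted p = 0.00117). Neu1, the lysosomal sialidase, read 0.66, −0.02 and −0.09 in AROM+ testes, against −1.13, −0.98 and −1.40 in WT testes. The first AROM+ testis stood highest, and the groups did not overlap (2.55-fold, 1.35 ± 0.22, limma adjusted p = 0.00512). Man2b1, the lysosomal alpha-mannosidase, read 2.67, 2.39 and 2.42 in AROM+ testes, against 1.56, 1.77 and 1.46 in WT testes (0.89 ± 0.12, limma adjusted p = 0.00367). Manba, the beta-mannosidase, read −0.30, −0.21 and −0.48 in AROM+ testes, against −0.94, −0.92 and −0.85 in WT testes (0.57 ± 0.10, limma adjusted p = 0.0057). Both mannosidases were higher on every AROM+ array.

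Smaller rises near the threshold were found for 3 glycosidases. Gaa, which degrades glycogen, differed by 0.38 ± 0.12 (limma adjusted p = 0.0321), Gla, the alpha-galactosidase deficient in Fabry disease, by 0.35 ± 0.11 (adjusted p = 0.0402), and Naglu, a heparan sulfate enzyme, by 0.28 ± 0.10 (adjusted p = 0.0441). None of these 3 was called under spike-in scaling or after centring on the gene median, where 3 and 4 glycosidases were higher. Only 4 were higher without AROM+ replicate 1, without WT replicate 1 or without WT replicate 3. Hexa, the alpha subunit of beta-hexosaminidase, differed by 0.18 ± 0.09 without overlap (limma adjusted p = 0.116), and the beta-galactosidase gene Glb1 by 0.43 ± 0.19 with 1 AROM+ testis among the WT values (adjusted p = 0.0900). The fucosidase gene Fuca1 overlapped between the groups (−0.06 ± 0.09, adjusted p = 0.610).

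The iduronidase gene Idua, whose enzyme takes part in the breakdown of heparan and dermatan sulfate, was not called by its brightest probe but differed by its other one. The 2 probes are shown because the brightest one begins with a repeat of 20 bases. Positions are on NCBI37/mm9 as the array files give them, and the letters are those of the probe; capitals mark runs of a 2-base unit of at least 10 bases.
Idua, brightest probe, chr5:109112893-109112952 (+ strand): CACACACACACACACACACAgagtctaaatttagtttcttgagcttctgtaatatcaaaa
Idua, other probe, chr5:109113517-109113576 (+ strand): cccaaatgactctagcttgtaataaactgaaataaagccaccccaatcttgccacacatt
The repeat probe read 4.73, 4.98 and 4.75 in AROM+ testes, against 4.95, 5.36 and 4.76 in WT testes, and the groups overlapped (−0.20 ± 0.17, limma adjusted p = 0.339). The other probe read −0.47, −0.77 and −0.57 in AROM+ testes, against −1.59, −1.32 and −1.64 in WT testes. It was higher on every AROM+ array, by 0.91 ± 0.13 (limma over all probes, adjusted p = 0.00503). The gap between the probes changed by 1.11 ± 0.19, without overlap of the groups (exact permutation p = 0.10, adjusted 0.156). Probes with such a repeat represent 2 of the 46 members, Idua and Sgsh, and 1.22% of all genes tested. What else the repeat probes bind was not tested.

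The sulfatases, which take sulfate off glycosaminoglycans and sulfolipids, had 1 of 4 members higher and 1 lower. Over all genes tested, 19.6% were higher and 32.7% lower. Ids, the iduronate sulfatase deficient in Hunter syndrome, read −2.22, −2.39 and −2.68 in AROM+ testes, against −3.86, −3.49 and −3.94 in WT testes. The groups lay well apart (2.52-fold higher, 1.33 ± 0.17, limma adjusted p = 0.0031). Arsa, the arylsulfatase that degrades sulfatide and a known component of the acrosome, read 2.824, 2.802 and 3.005 in AROM+ testes, against 3.117, 3.133 and 3.326 in WT testes. Every AROM+ value was under every WT value, by a small margin (−0.32 ± 0.10, limma adjusted p = 0.0391). This call was lost when any 1 array other than AROM+ replicate 3 was left out, and under quantile normalization, spike-in scaling, the deposited table and no filter on dim probes. Arsb, which acts on dermatan sulfate, overlapped through AROM+ replicate 3 (0.60 ± 0.24, limma adjusted p = 0.0747). Arsb was called in 3 of the 19 other settings, among them leaving out that testis, where the difference was 0.89.

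Sgsh, the heparan N-sulfatase of Sanfilippo syndrome type A, is the other member whose brightest probe holds a repeat. Its 2 probes lie next to each other on chromosome 11, and both are shown because they disagree; capitals again mark runs of a 2-base unit of at least 10 bases.
Sgsh, brightest probe, chr11:119204865-119204924 (- strand): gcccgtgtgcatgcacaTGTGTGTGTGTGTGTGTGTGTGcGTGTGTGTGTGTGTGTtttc
Sgsh, other probe, chr11:119204805-119204864 (- strand): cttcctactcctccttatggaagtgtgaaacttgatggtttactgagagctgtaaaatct
The repeat probe read 5.15, 5.21 and 5.50 in AROM+ testes, against 5.39, 5.73 and 5.16 in WT testes (−0.14 ± 0.17, limma adjusted p = 0.513). The other probe read −0.60, −0.78 and −0.57 in AROM+ testes, against −0.98, −1.10 and −1.17 in WT testes. Its groups did not overlap, with a difference of 0.43 ± 0.10 (limma over all probes, adjusted p = 0.0172). The change of the gap between the 2 probes was 0.57 ± 0.18 (exact permutation p = 0.10, adjusted 0.156). Of the 14 such comparisons in 13 members, 9 did not overlap between the groups, and each of the 9 had this p. For single genes, not gaps, 63.4% did not overlap. The share for probe gaps of other genes is not given here, so the count is not read as particular to the members. The second probes of Gusb (0.97) and Arsb (0.14) gave smaller differences than the brightest ones, while those of Laptm5, Gaa, Asah1, Fuca1 and Atp6v1a overlapped in their gap.

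The lipid and acyl hydrolases with their cofactor had 3 of 4 members higher and 0 lower. Psap, the precursor of the saposins that present sphingolipids to their hydrolases, read 3.07, 2.77 and 3.14 in AROM+ testes, against 1.27, 1.98 and 1.84 in WT testes. All AROM+ values were above all WT values (2.46-fold, 1.30 ± 0.20, limma adjusted p = 0.00467). Asah1, the acid ceramidase, read 1.13, 1.11 and 0.69 in AROM+ testes, against −0.31, −0.17 and −0.34 in WT testes. Its rise was 2.38-fold (1.25 ± 0.14, limma adjusted p = 0.00267), and its second probe gave 1.28. Smpd1, the acid sphingomyelinase, read 0.94, 0.85 and 0.94 in AROM+ testes, against −0.01, 0.40 and −0.07 in WT testes (0.81 ± 0.14, limma adjusted p = 0.00555). These 3 genes of sphingolipid breakdown were higher on every AROM+ array. Ppt1, which takes palmitate off proteins, read 1.65, 1.81 and 1.64 in AROM+ testes, against 2.21, 1.11 and 2.17 in WT testes. The second WT testis stood below all others and the other WT testes above all, so the groups overlapped (−0.13 ± 0.29, limma adjusted p = 0.729). Ppt1 was called in 1 of the 19 other settings, without WT replicate 2, where the difference was −0.49 (limma adjusted p = 0.0161).

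Both proteases were higher. Tpp1, the tripeptidyl peptidase deficient in a childhood form of neuronal ceroid lipofuscinosis, read 0.36, 0.00 and −0.23 in AROM+ testes, against −1.34, −1.01 and −1.62 in WT testes (2.58-fold, 1.37 ± 0.20, limma adjusted p = 0.00413). Lgmn, the asparaginyl endopeptidase legumain that processes cathepsins, read 2.47, 2.10 and 2.60 in AROM+ testes, against 1.49, 1.69 and 1.35 in WT testes. Neither protease had an AROM+ value within the WT range, and the difference of Lgmn was 0.88 ± 0.16 (limma adjusted p = 0.00644).

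**Figure D3:**
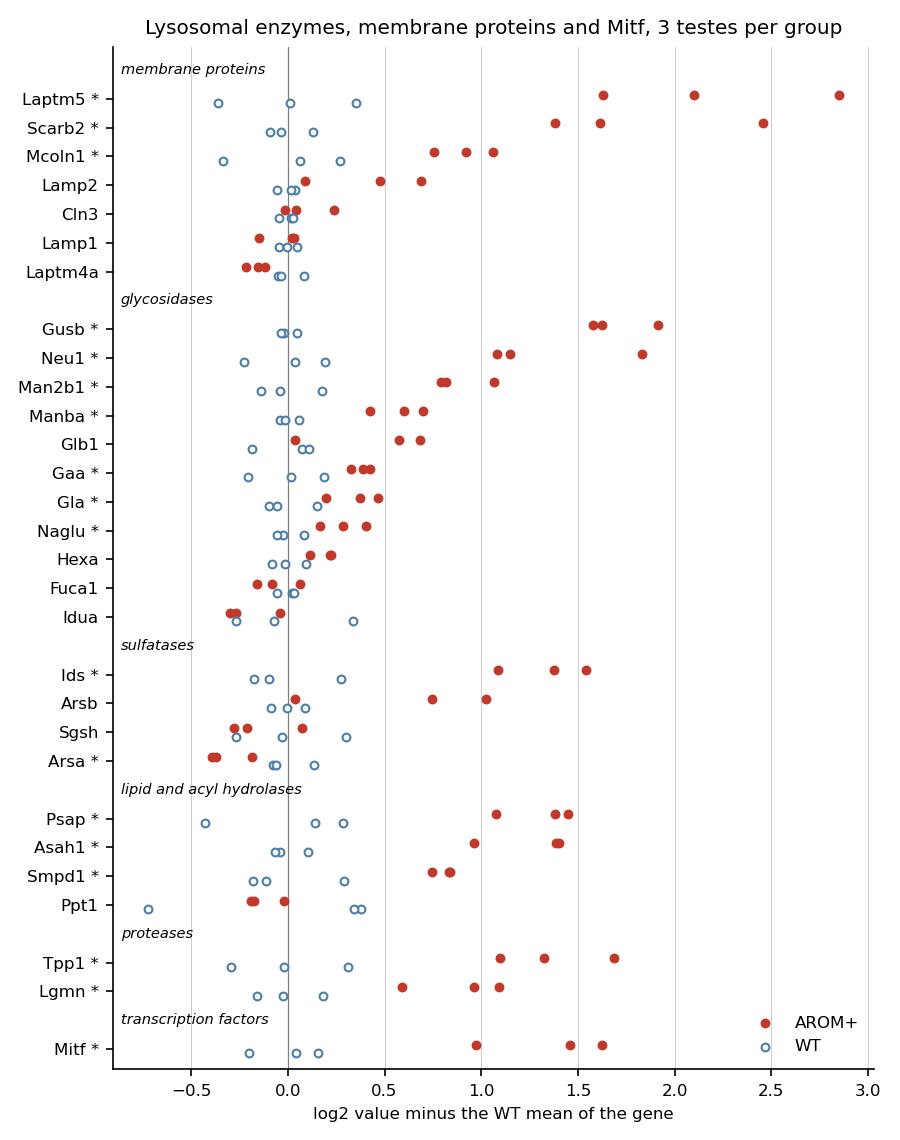
Each testis as 1 point for the 29 enzymes, membrane proteins and Mitf, as log2 value minus the WT mean of the same gene; filled points are AROM+ and open points WT, and an asterisk marks a limma adjusted p under 0.05. Laptm5, Scarb2 and Gusb stand farthest right, while Lamp1, Fuca1 and Idua scatter around 0.

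Of the 2 transcription factors, only Mitf was measured. Mitf, a MiT factor known from melanocytes and osteoclasts, read −0.37, −1.02 and −0.54 in AROM+ testes, against −1.95, −1.84 and −2.20 in WT testes. The groups did not overlap, and the rise was 2.55-fold (1.35 ± 0.19, limma adjusted p = 0.00367). Its other probe was dimmer but well above background on all 6 arrays. That probe read −5.25, −5.26 and −4.68 in AROM+ testes, against −5.53, −5.30 and −5.36 in WT testes. It differed by 0.33 ± 0.18 and was not called (limma over all probes, adjusted p = 0.159). The gap between the 2 Mitf probes changed by −1.02 ± 0.26 without overlap (exact permutation p = 0.10, adjusted 0.156). Among other MiT factors and regulators, 6 of 8 were tested, with 1 higher and 1 lower. Rragc, a GTPase that recruits mTORC1 to the lysosome, was higher by 0.32 and Mtor, its kinase, lower by the same amount (−0.32). Tfe3 and Tfec had no probe under their names and are not analysed here.

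All 6 members of the V0 sector lay higher on every AROM+ array than on any WT array, and 4 passed the test. For Atp6v0d1 this was almost a tie, with 1.34819 on AROM+ replicate 3 and 1.34755 on WT replicate 3. Over all genes, AROM+ lay above in 4422 of the 19186 with values on every array, and 19.6% of those tested were called higher. Atp6v0a2, the a2 subunit of the same sector and not a member, went the other way, with every AROM+ value below every WT value (−0.43 ± 0.11, limma adjusted p = 0.0198). Tcirg1, the a3 subunit known from the acid-secreting membrane of osteoclasts, read 0.22, −0.87 and 0.11 in AROM+ testes, against −1.75, −1.58 and −2.06 in WT testes. The second AROM+ testis was lower than the other two, yet above all WT values (3.06-fold, 1.62 ± 0.30, limma adjusted p = 0.00694). The a1 subunit gene Atp6v0a1 read 0.98, 0.94 and 0.74 in AROM+ testes, against −0.09, 0.06 and −0.22 in WT testes (1.96-fold, 0.97 ± 0.11, limma adjusted p = 0.00281). Atp6v0b, a subunit of the proton-carrying ring, read 2.01, 1.99 and 2.09 in AROM+ testes, against 1.46, 1.63 and 1.47 in WT testes (0.51 ± 0.09, limma adjusted p = 0.00555). The small subunit gene Atp6v0e differed by 0.31 ± 0.10 (adjusted p = 0.0343), and this call was lost in 9 of the 19 other settings. Atp6v0c, the main ring subunit, differed by 0.17 ± 0.08 (adjusted p = 0.114) and Atp6v0d1, which couples the sectors, by 0.22 ± 0.10 (adjusted p = 0.106), both without passing the test.

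Of the 11 V1 members, 2 were higher, 3 were lower and 6 were not called. These counts lie near the shares over all genes tested, 19.6% higher and 32.7% lower. Their median difference of −0.19 was also near that of all genes (−0.15). The mean level of the V1 members lay between 0.80 and 0.93 in AROM+ testes and between 0.87 and 0.98 in WT testes, which overlap. That of the 6 V0 members lay between 1.62 and 1.85 in AROM+ testes and between 1.02 and 1.20 in WT testes. Atp6v1c1, which holds the motor to the membrane, read −0.79, −0.91 and −0.88 in AROM+ testes, against −1.63, −1.49 and −1.59 in WT testes (1.63-fold higher, 0.70 ± 0.08, limma adjusted p = 0.00293). Atp6v1b2, the widely expressed B subunit, read −1.92, −1.99 and −2.26 in AROM+ testes, against −2.68, −2.62 and −2.42 in WT testes. Its rise was 0.51 ± 0.12 (limma adjusted p = 0.0153), and without WT replicate 1 it was not called, which left 1 higher subunit. Spike-in scaling also left 1 higher subunit.

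The 3 lower subunits were Atp6v1b1, Atp6v1g2 and Atp6v1d. Atp6v1b1, the B subunit known from kidney and epididymis, read −0.47, −0.64 and −0.85 in AROM+ testes, against −0.06, 0.10 and 0.31 in WT testes. Every AROM+ value was under every WT value, a 1.71-fold fall (−0.77 ± 0.14, limma adjusted p = 0.00632). Atp6v1g2, the G subunit known from neurons, read −2.31, −2.33 and −2.45 in AROM+ testes, against −1.99, −1.83 and −2.04 in WT testes (−0.41 ± 0.09, limma adjusted p = 0.0131). Its second probe fell further (−1.09 ± 0.12, limma over all probes, adjusted p = 0.00349), and the gap between the probes changed by −0.68, or by −0.49 with normexp background correction. Atp6v1d, a subunit of the rotating stalk, read 2.39, 2.55 and 2.46 in AROM+ testes, against 2.70, 2.76 and 2.77 in WT testes (−0.27 ± 0.08, limma adjusted p = 0.0303). Spike-in scaling kept 1 of these 3 calls, and after centring on the gene median 5 V1 subunits were lower.

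Of the 6 V1 subunits not called, Atp6v1e1, the widely expressed E subunit, came nearest to the threshold. It read 2.21, 2.00 and 1.82 in AROM+ testes, against 1.67, 1.76 and 1.55 in WT testes, without overlap (0.35 ± 0.12, limma adjusted p = 0.0508). Atp6v1e2, its paralog known from the acrosome of spermatids, read 2.57, 2.73 and 2.67 in AROM+ testes, against 2.77, 2.83 and 2.92 in WT testes, with every AROM+ value below (−0.19 ± 0.09, adjusted p = 0.116). The stalk subunit gene Atp6v1f also lay below on every AROM+ array (−0.21 ± 0.10, adjusted p = 0.129). The catalytic subunit gene Atp6v1a (−0.07 ± 0.08, adjusted p = 0.506), the regulatory subunit gene Atp6v1h (0.02 ± 0.09, adjusted p = 0.850) and the widely expressed G subunit gene Atp6v1g1 (−0.30 ± 0.20, adjusted p = 0.243) overlapped between the groups. The value of Atp6v1g1 rested on the first AROM+ testis, at 1.67 against 2.41 and 2.28 in the others.

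**Figure D4:**
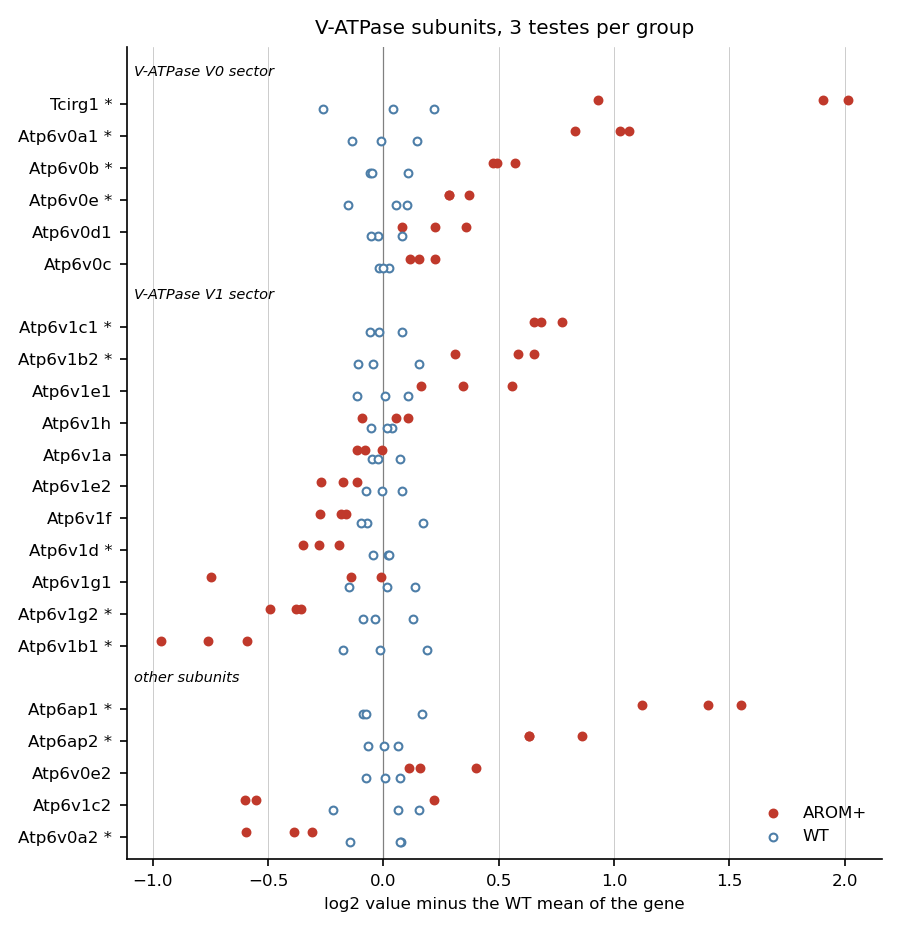
Each testis as 1 point for 17 V-ATPase members and 5 other subunits, as log2 value minus the WT mean of the same gene; filled points are AROM+ and open points WT, and an asterisk marks a limma adjusted p under 0.05. The 6 V0 members lie to the right of 0, V1 members lie on both sides, and among the other subunits Atp6v0a2, a V0 subunit, lies to the left. Atp6v0d2, with a difference of 4.98, is left out to keep the axis readable.

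Paralogs were compared within each testis, as the log2 value of one minus that of the other, in 7 pairs, so that a scale factor of an array drops out. The SE of a pair comes from its own 3 values per group and is not limma's. Atp6v1b1 moved against Atp6v1b2 by −1.29 ± 0.04, and Atp6v1e2 against Atp6v1e1 by −0.54 ± 0.18, both without overlap of the groups. In both pairs the subunit known from specialised cells lost ground in AROM+ testes to its widely expressed paralog. In the opposite sense, the osteoclast-type d subunit gene Atp6v0d2 moved against the widely expressed Atp6v0d1 by 4.76 ± 0.44, and Laptm5 against Laptm4a by 2.35 ± 0.45, again without overlap. Each of these 4 shifts had the smallest p the design allows, 0.10 in a two-sided exact permutation test, and 0.175 after adjustment over the 7 pairs. Overlap was found for Tcirg1 against Atp6v0a1 (0.64 ± 0.38, exact permutation p = 0.30), Lamp2 against Lamp1 (0.45 ± 0.23, exact permutation p = 0.20) and Atp6v1g2 against Atp6v1g1 (−0.11 ± 0.29, exact permutation p = 0.60).

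**Figure D5:**
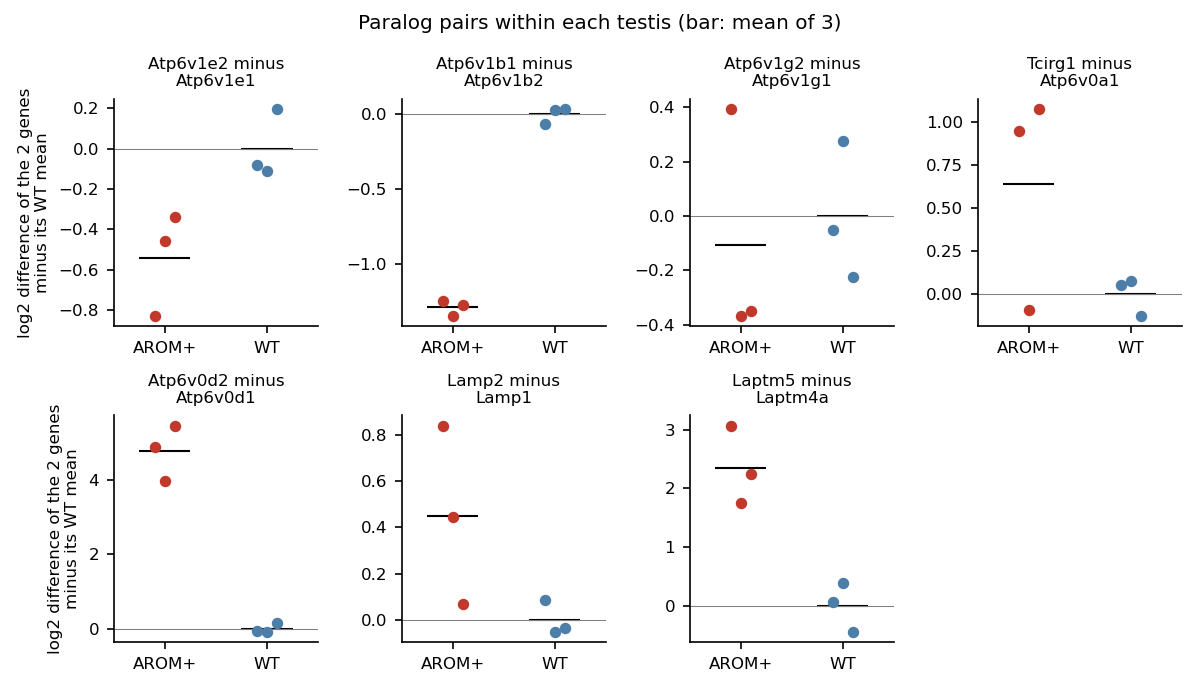
The log2 difference of 2 paralogs within each testis, minus its WT mean, for 7 pairs; points are testes (AROM+ left, WT right), bars are means of 3, and each panel has its own vertical axis. The groups are apart in the pairs of E, B and d subunits and in Laptm5 against Laptm4a, and they overlap in the other 3 pairs.

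Other genes of the pathway were read from lists chosen by function. Of 17 other lysosomal enzymes and cofactors, 13 were higher, 0 were lower and the median difference was 0.81. Among those that rose were Lipa (2.41), the acid lipase that frees cholesterol and fatty acids, Pla2g15 (1.89), a lysosomal phospholipase, and Hyal1 (1.50), a hyaluronidase. Of 8 other V-ATPase genes 6 were tested, with 3 higher and 1 lower. Atp6v0d2 read 0.06, −1.01 and 0.34 in AROM+ testes, against −5.26, −5.33 and −4.96 in WT testes. It was above background on all 6 arrays, so its 31.5-fold rise (4.98 ± 0.34, limma adjusted p = 0.00128) is a measured difference and the largest among the V-ATPase genes tested. The accessory subunit genes Atp6ap1 (1.36) and Atp6ap2 (0.71) were higher, and Atp6v0a2 was the lower one.

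Among 12 other lysosomal membrane proteins tested, 7 were higher and 1 was lower. Gpnmb, a glycoprotein of macrophages and osteoclasts, was well above background on all 3 AROM+ arrays and not well above background on any WT array. It read 0.91, −0.48 and 1.74 in AROM+ testes, against −9.24, −8.89 and −8.21 in WT testes, and was at least 195-fold higher. Gpnmb passed the filter on dim probes through the AROM+ arrays alone, so no p is given for it. It is 1 of the 7 genes counted as higher. The bound sets the AROM+ mean of 0.72 against the lowest signals well above background on the WT arrays, where its own mean was −8.78. Cd68 (2.40), a sialomucin also counted among the macrophage markers, and the tetraspanin gene Cd63 (0.81) were also higher, and the calcium channel gene Mcoln3 (−0.66) was lower. Without WT replicate 1, 4 of these membrane genes were higher. Of 8 genes that sort enzymes to the lysosome, 3 were higher and 2 were lower. The mannose 6-phosphate receptor gene Igf2r (0.60), the adaptor gene Gga2 (0.59) and Gnptab (0.28), which makes the mannose 6-phosphate tag, were higher, while Sort1 (−0.48), a sorting receptor gene, and Gga1 (−0.44), an adaptor gene, were lower. The other mannose 6-phosphate receptor gene, M6pr, read 1.20, 1.15 and 1.18 in AROM+ testes, against 1.19, 1.15 and 1.18 in WT testes.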

How the data were processed

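Testis RNA of 3 AROM+ and 3 WT mice was read on one-colour Agilent arrays with Cy3, 1 testis per array. The authors deposited the scanner output, made with Agilent Feature Extraction. The file headers give its version as 10.7.3.1 and the submitters' processing notes as 10.10. Per the file headers, the deposited processed signal is an intensity with the background already taken off. The authors also deposited a table of log2 values, which followed log2 of the processed signal with a slope of 1.00. Beyond 1 constant per array, the values differed with a standard deviation of 0.045 (WT replicate 1) to 0.073 (AROM+ replicate 3). The column medians of the deposited table were −3.05, −3.09 and −3.02 in AROM+ and −3.12, −3.11 and −3.09 in WT. This table was used as an alternative. For the analysis, the processed signal of each array was divided by its own 75th percentile and put on a log2 scale. Control spots (3671 of 62976) and spots with outlier flags were left out, spots of 1 probe were averaged (55681 probes), and no member probe was saturated. A gene was read from its brightest probe, kept where all 3 arrays of 1 group or both showed it well above background. Genes whose names matched the RefSeq table of GRCm38.p6 were tested, 19189 in all. The number of arrays limits the precision, and p-values measure the spread between these testes.

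The test was limma's (version 3.58.1, R 4.3.3; lmFit and eBayes, Benjamini-Hochberg over all genes, threshold 0.05), and probes of a gene in a fit over all kept probes. Single values, such as a difference between 2 genes, were compared with exact two-sided permutation tests. The members and lists were chosen with earlier results of these data known. The named genes are all members, up to 4 called genes of each other list by the size of the difference, and paralogs in a pair, except a few results that are not reported here; Gnptab, Csf1r, Aif1, M6pr and Cyp19a1 were added after their values were seen. The fit was tested on simulated data of the AROM+ against WT comparison with 19186 genes, and called 20%, 70%, 94% and 100% of the genes given log2 changes of 0.5, 1, 2 and 4; 11 of its 153 calls were false. Same-numbered testes did not deviate together (r = 0.02, −0.22 and 0.00 for the 3 numbers), so the numbers were not taken as pairs. Alternatives were normexp background correction (offset 50), 4 other scalings, the deposited table, other filters and probe summaries, all gene names, a replicate block, eBayes with a trend, array weights and leaving out each array. The comparison of the list counts and of probes within a gene under these alternatives, and the search for repeats in probes, were chosen after seeing the data.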

Additional observations from a re-analysis of the deposited data

How the results depend on the processing

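Of the 27 members called, 18 kept their call and their sign in each of the 19 other settings run, and none of the 27 changed sign. The other 9 called members (Atp6v0e, Atp6v1b2, Atp6v1d, Atp6v1g2, Gaa, Gla, Naglu, Manba and Arsa) lost the call in at least 1 setting. Some members not called changed sign between settings, such as Idua (−0.34 to 0.35) and Lamp1 (−0.13 to 0.18). Higher members numbered 17 to 28 over the settings, and 18 to 24 when 1 array was left out, against 23. Lower members numbered 2 under quantile normalization, 1 under spike-in scaling and 7 after centring on the gene median, against 4. The median difference of the members was 0.51 under quantile normalization, where the median of all genes was −0.04, and 0.27 after centring, against 0.37. Over all genes, lower calls numbered 4078 under quantile normalization, against 6271, and higher calls 2475 under spike-in scaling, against 3759. With all gene names of the files, which tests more names, lower calls numbered 9054. The cause of these shifts was not tested. When 1 array was left out, all genes gave 2600 to 3563 higher and 3873 to 5596 lower calls, and the members gave 2 to 3 lower ones. The lowest of these came without WT replicate 1 and without WT replicate 3 for all genes, and the 2 lower members came without AROM+ replicate 1, WT replicate 1 or WT replicate 3. The shift of Atp6v0d2 against Atp6v0d1 was 4.09 with normexp and 6.50 with the mean of the probes of a gene, against 4.76, and that of Lamp2 against Lamp1 was 0.85 with the mean of the probes, against 0.45. The shorter motifs CACGTG and TCACGTG each gave 14 members with a match, against 6. With the replicate number as a block, 19 members were higher and 3 lower, with 6 calls lost and 1 gained, and the numbers do not pair the testes. All 46 members were well above background on all 6 arrays, and the number of arrays limits the precision.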
